A study of Mus musculus with 8 samples.

Results

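The mitochondrial ribosomal protein genes were taken as every gene whose symbol starts with Mrpl or Mrps followed by a number, with pseudogenes left out. This gave 78 of the 27179 genes measured, 49 with large subunit symbols (Mrpl) and 29 with small subunit symbols (Mrps). They were measured by RNA-seq in LTi (lymphoid tissue inducer) cells of C57BL/6 mice. These innate lymphocytes start the building of lymphoid tissue, and they were sorted for CD127 and CCR6 and against KLRG1, NK1.1, NKp46 and lineage markers. There were 8 libraries, 2 in each of 4 groups. The first group was small intestine lamina propria (LP) of mice labelled Tcf7fl/fl with a Cre transgene, here called labelled knockout LP, and the second was LP of Tcf7+/+ mice, here called wild-type LP. The others were Peyer's patches (PP) of the mice with Tcf7fl/fl and Cre (labelled knockout PP) and PP of Tcf7+/+ mice (wild-type PP). Tcf7 encodes the transcription factor TCF-1, and deletion is limited to cells in which Cre is or was active. Age, sex and any pooling of animals are not given, and nothing says that the replicates came from separate animals, so p-values measure only the spread between these libraries.

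Mitochondria have their own ribosome, which translates the few messenger RNAs of the mitochondrial genome into membrane subunits of the respiratory chain and ATP synthase. Its ribosomal RNAs are made inside the organelle, but all its proteins are encoded in the nucleus, made in the cytosol and imported. Some of these proteins are homologues of bacterial ribosomal proteins, and others are found only in mitochondrial ribosomes. The large subunit forms peptide bonds and the small subunit reads the messenger. Symbols and positions do not always match: Mrps30 and Mrps18a carry small subunit symbols but their proteins sit in the large subunit, and the product of Mrps36 is now known as a component of 2-oxoglutarate dehydrogenase. By these known homologies, 30 of the large and 18 of the small subunit genes have a bacterial homologue, and 19 and 11 do not. The genes lie on 17 chromosomes, with 11 of them on chromosome 11.

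Library depth, estimated from the steps between low values, was 31.4 to 37.4 M reads, and 6365 to 8433 genes reached 1 RPKM (reads scaled to transcript length and library size). The Tcf7 transcript was not reduced in the libraries labelled knockout: it measured 237 and 215 RPKM in labelled knockout LP, 229 and 246 RPKM in wild-type LP, 355 and 337 RPKM in labelled knockout PP, and 243 and 85.4 RPKM in wild-type PP. A gene total does not separate deleted exons from the rest, and the groups are therefore named by their labels. The LTi markers Il7r, Ccr6, Id2 and Ltb were above 80 RPKM in every library. Others of the 12 LTi markers listed fell lower, down to 3.57 RPKM for Lta in replicate 2 of labelled knockout LP. Immunoglobulin transcripts took 10.4 to 17.3% of summed RPKM in LP and 2.83 to 6.43% in PP libraries. Mitochondrially encoded transcripts took 13.4 and 13.6% in labelled knockout PP and 3.06 to 5.06% in the other 6 libraries. The female-specific Xist RNA measured 60.3 RPKM in replicate 1 of labelled knockout LP and below 0.1 RPKM in the other 3 LP libraries, so the LP libraries did not all come from the same sex. Xist measured 0.326 and 1.84 RPKM in labelled knockout PP and 9.60 and 9.22 RPKM in wild-type PP. The Y-linked Ddx3y measured 0.312 RPKM in replicate 1 of labelled knockout LP, 58.9 to 71.3 RPKM in the other 3 LP libraries and 0.223 to 8.93 RPKM in the 4 PP libraries. Within PP it measured 8.93 and 1.36 RPKM in the labelled knockout and 0.779 and 0.223 RPKM in the wild-type. Sex-linked transcripts thus differed between libraries of the 2 tissues and of the 2 genotypes. Their part in the tissue and genotype differences below was not tested.

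Averaged over the 8 libraries, the 78 genes ranged from 1.69 RPKM (Mrpl1) to 217 RPKM (Mrpl52), with a median of 36.3 RPKM. The medians were 32.5 RPKM for the 49 large and 42.5 RPKM for the 29 small subunit genes. The 6 highest were Mrpl52 and Mrpl54, which occur only in mitochondrial ribosomes, Mrps21, Mrpl33 and Mrpl4, homologues of bacterial S21, L33 and L4, and Mrpl58, the peptidyl-tRNA hydrolase that frees stalled chains and is built into the large subunit. Mrpl52 measured 156 and 47.3 RPKM in labelled knockout LP, 156 and 147 RPKM in wild-type LP, 340.2 and 217 RPKM in labelled knockout PP, and 382 and 287 RPKM in wild-type PP. The other 5 of these genes averaged 129 to 147 RPKM, which is within the spread of their own libraries, so their order is not resolved. Of the 78 genes, 32 reached 1 RPKM in all 8 libraries and 17 reached 10 RPKM in all 8. Of the 624 single values, 107 lay below 1 RPKM. The heat map of all the genes shows these low values scattered among much higher ones.

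**Figure D1:**
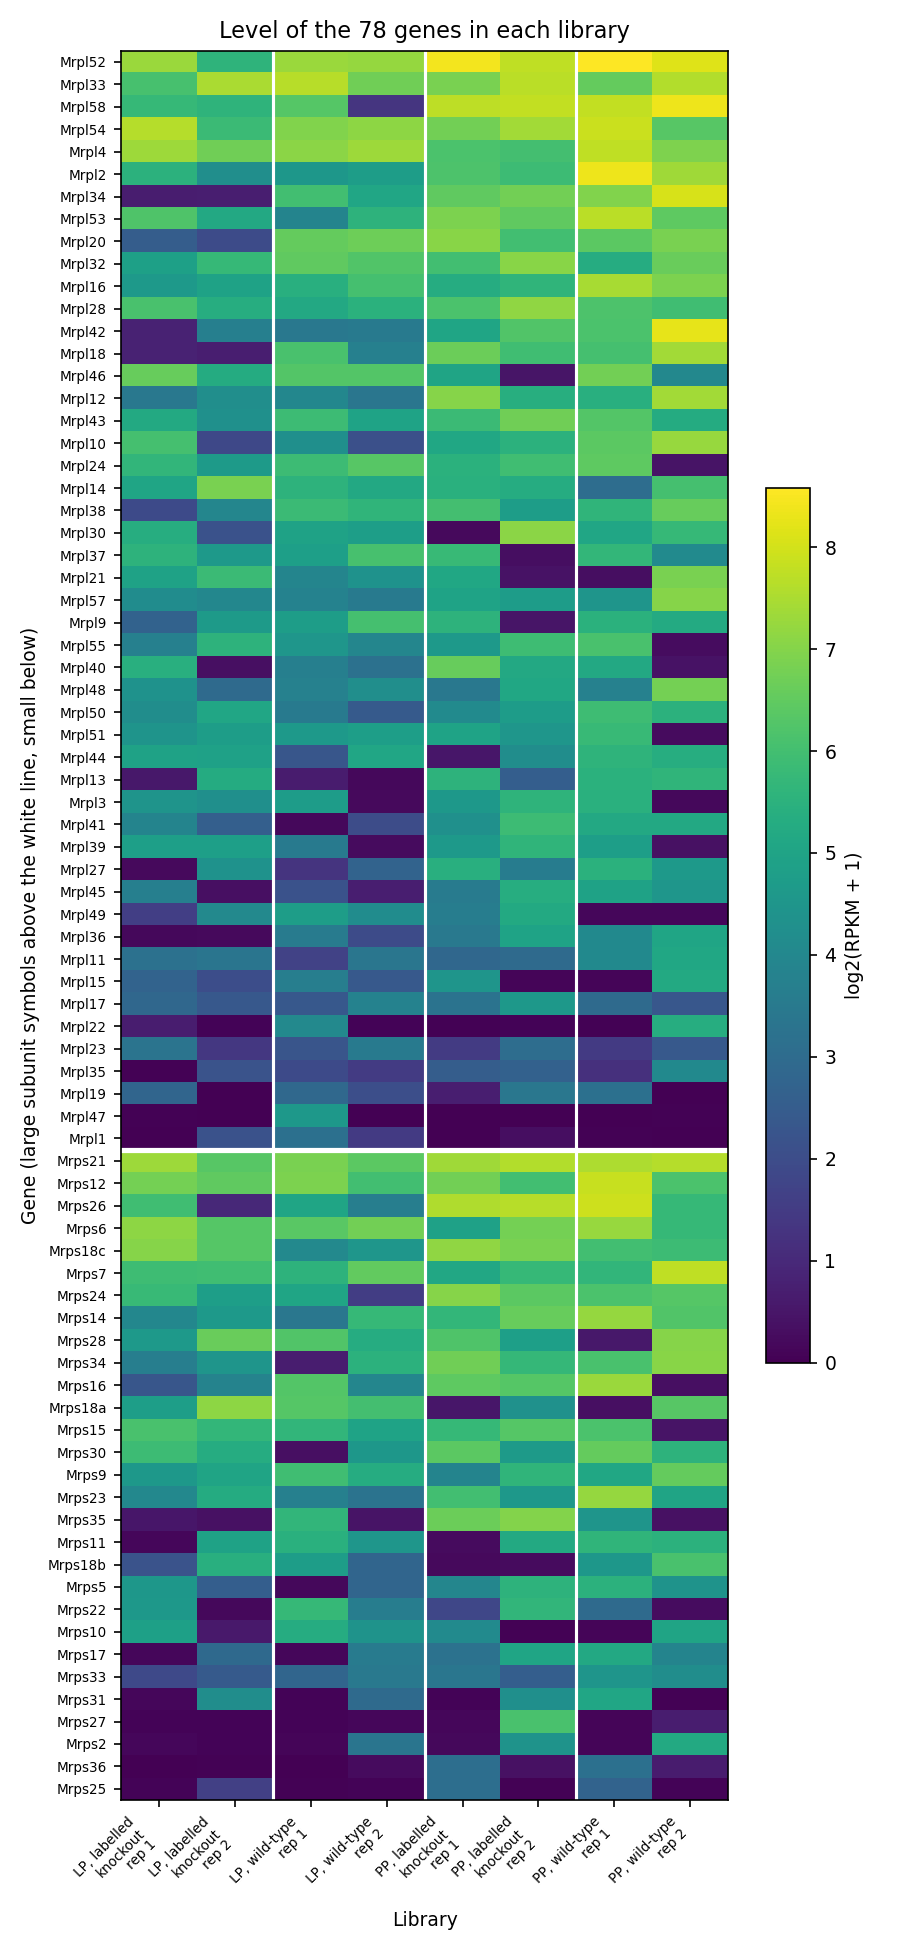
Level of each of the 78 mitochondrial ribosomal protein genes (rows, ordered by mean within each subunit) in the 8 libraries (columns), as log2(RPKM + 1) in colour. The upper rows are high in nearly every library, while dark cells, values below 1 RPKM, occur in single libraries of many other genes.

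The steadiest genes across all libraries were Mrps21, Mrpl4, Mrpl33, Mrps12 and Mrpl28, homologues of bacterial S21, L4, L33, S12 and L28. Mrps12, whose bacterial homologue sits at the decoding centre, measured 109.8 and 88.6 RPKM in labelled knockout LP, 118 and 62.1 RPKM in wild-type LP, 107 and 62.0 RPKM in labelled knockout PP, and 231 and 69.9 RPKM in wild-type PP. The most variable genes were Mrps35, Mrpl34, Mrps18a, Mrpl18 and Mrpl13. Mrps35, a protein found only in mitochondrial ribosomes, measured 0.445 and 0.310 RPKM in labelled knockout LP, 48.9 and 0.359 RPKM in wild-type LP, 98.9 and 125 RPKM in labelled knockout PP, and 21.1 and 0.316 RPKM in wild-type PP. The standard deviation of log2(RPKM + 1) over the 8 libraries was 3.03 for Mrps35 and 0.52 for Mrps21.

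Some members were below 1 RPKM in 1 replicate and at 10 RPKM or more in the other. In each group their share was below that of all genes. Taking genes that reached 10 RPKM in at least 1 replicate, 10 of 58 members (17.2%) in labelled knockout LP, 8 of 64 (12.5%) in wild-type LP, 13 of 67 (19.4%) in labelled knockout PP and 17 of 68 (25%) in wild-type PP were below 1 RPKM in the other replicate. Over all genes the shares were 23.1% in labelled knockout LP, 15.2% in wild-type LP, 24.9% in labelled knockout PP and 38.6% in wild-type PP. The same count was 0 of 75 to 81 genes in 3 groups, and 3 of 76 in wild-type PP, for the proteins of the cytosolic ribosome, and at most 1 of 74 for the nuclear-encoded respiratory chain and ATP synthase. In all, 34 members were split in this way in at least 1 group and 44 in none. Mrpl24, the homologue of bacterial L24, is an example, with 87.0 and 0.356 RPKM in wild-type PP and 24.8 to 81.0 RPKM in the other 6 libraries.

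**Figure D2:**
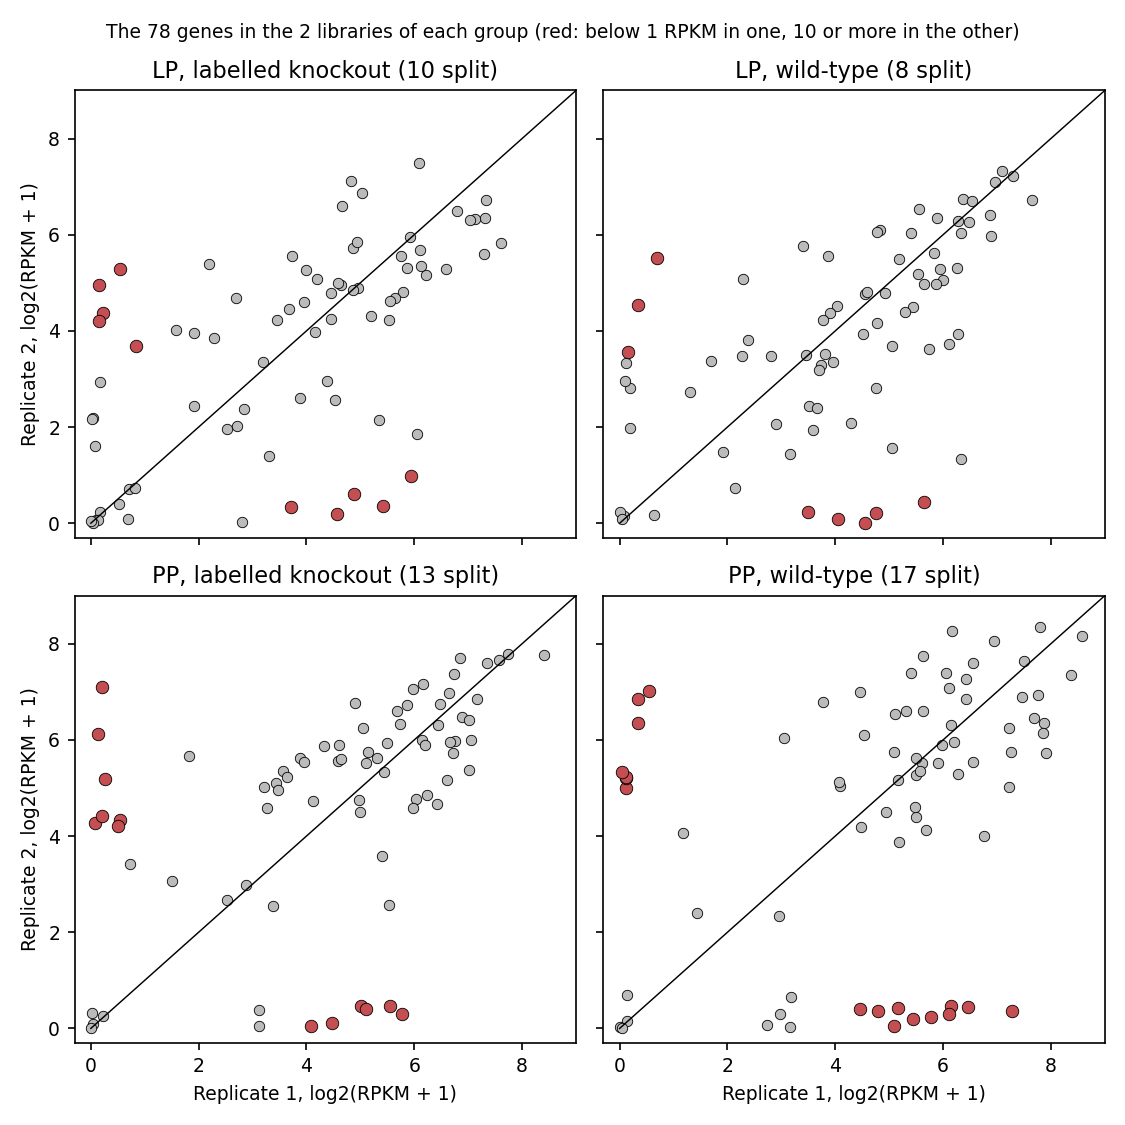
Replicate 2 (vertical axis) against replicate 1 (horizontal axis) for the 78 genes in each group, as log2(RPKM + 1), with equality as a line. Red points are the 10, 8, 13 and 17 genes below 1 RPKM in one replicate and at 10 RPKM or more in the other.

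The mitochondrial ribosomal protein genes had lower levels in LP than in PP as a group. Summed over the 78 genes the level was 2601 and 2243 RPKM in labelled knockout LP, 2827 and 2413 RPKM in wild-type LP, 4010.1 and 4310 RPKM in labelled knockout PP, and 5407 and 5300.1 RPKM in wild-type PP. All 4 LP sums lay below all 4 PP sums, with a mean LP over PP ratio of 0.582 in the labelled knockout and 0.489 in the wild-type. As a share of summed RPKM they took 0.416 to 0.527% in LP and 0.714 to 0.962% in PP. Both subunits showed this: large subunit genes summed to 1270 to 1807 RPKM in LP and 2526 to 3756 RPKM in PP, and small subunit genes to 797 to 1038 RPKM in LP and 1484 to 1949 RPKM in PP. The summed large subunit level was 1.31 to 2.43 times the small one, with LP and PP libraries overlapping.

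**Figure D3:**
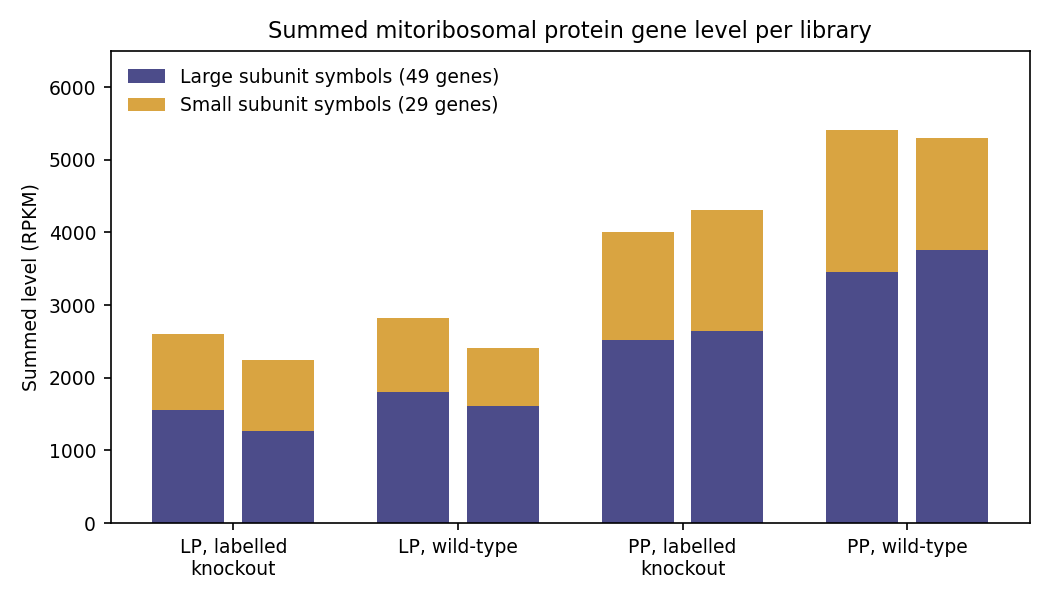
Summed level (RPKM) of the 49 large (lower part) and 29 small subunit genes (upper part), one bar per library, 2 per group. The 4 LP bars reach 2243 to 2827 RPKM and the 4 PP bars 4010.1 to 5407 RPKM.

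Other transcripts moved between the tissues as well. The 12 LTi markers summed to 3222 to 3803 RPKM in LP and 6192 to 7003 RPKM in PP. All 12 were measured at 1 RPKM or more in every library, and Ltb was lower in LP in both genotypes (limma adjusted p = 0.0278 in the labelled knockout and 0.0448 in the wild-type). Tnfsf11, the LTi cytokine RANKL, went the other way, with 546 and 643 RPKM in labelled knockout LP, 931 and 801 RPKM in wild-type LP, 175 and 111 RPKM in labelled knockout PP, and 32.9 and 108 RPKM in wild-type PP. Its log2 difference was 2.08 ± 0.55 in the labelled knockout (limma adjusted p = 0.130) and 3.83 ± 0.55 in the wild-type (limma adjusted p = 0.0232). The 8 B and plasma cell markers summed to 15144 to 24720.1 RPKM in LP and 4897 to 12090 RPKM in PP. Nearly all of this was Igkc, at 14326 to 23305 RPKM in LP and 4368 to 11411 RPKM in PP. The median of the 8 markers ran the other way, at 23.4 to 33.7 RPKM in LP and 71.4 to 97.8 RPKM in PP. Igkc and Jchain, which plasma cells express at high levels, were higher in LP on average over the genotypes (log2 difference 1.22 ± 0.20 and 2.02 ± 0.27, limma adjusted p = 0.00755 and 0.00204), while Ighm was lower (-4.14 ± 0.99, limma adjusted p = 0.0439), and Cd79b of the B cell receptor was lower in LP in the labelled knockout (-2.76 ± 0.44, limma adjusted p = 0.0375). The 8 T cell markers summed to 205 to 341 RPKM in LP and 619 to 895 RPKM in PP. The largest part was Trbc2, at 112 to 172 RPKM in LP and 298 to 497 RPKM in PP. Cd3d, Cd3e, Cd3g, Cd8a and Trac were each below 1 RPKM in some libraries of both tissues. The 12 epithelial markers summed to 123 to 418 RPKM in LP and 150 to 625 RPKM in PP. Myeloid markers summed to at most 65.2 RPKM in any library, and the 7 stromal and endothelial markers to 51.5 to 258 RPKM, with Col1a1 at 0 throughout. The part of these transcripts in the lower mitochondrial ribosomal level was not tested, and in bulk RNA fewer cells of a type and less RNA per cell cannot be told apart.

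Gene by gene, 76 of the 78 members entered the test across the 10541 genes that reached 1 RPKM in at least 2 libraries. Mrps27 and Mrpl47 did not, with 68.4 and 22.6 RPKM in a single library each and below 1 RPKM elsewhere. In the labelled knockout, 3 of the 76 had lower levels in LP than in PP at an adjusted p under 0.05 (limma, Benjamini-Hochberg over all genes) and 0 had higher levels, where 2% of all genes passed in either direction (1.07% lower, 0.93% higher). The median log2 difference was -0.69 for the members and -0.29 for all genes, and 53 of the 76 members were below 0, against 58.4% of all genes. In the wild-type 0 of 76 passed, where 2.13% of all genes did. There 20 members (26.3%) had an unadjusted p under 0.05, 18 lower and 2 higher in LP, against 17% of all genes, and the median log2 difference was -0.73 for the members and 0.09 for all genes. Averaged over both genotypes in an additive model, 3 of 76 passed, all lower in LP, against 4.33% of all genes in either direction and 2.03% lower. The member medians lay 0.40 and 0.81 below the median of all genes in the labelled knockout and the wild-type.

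The members that passed were Mrpl34, Mrpl20 and Mrpl18 in the labelled knockout and Mrpl34, Mrpl42 and Mrpl18 on average. All 4 belong to the large subunit. Mrpl34, homologue of the short rRNA-binding protein L34 of bacteria (Entrez gene 94065, chromosome 8, bases 71464926 to 71465753, plus strand), measured 0.625 and 0.630 RPKM in labelled knockout LP, 62.9 and 32.5 RPKM in wild-type LP, 88.5 and 107 RPKM in labelled knockout PP, and 122 and 267 RPKM in wild-type PP. The labelled knockout LP values correspond to about 14 and 12 reads, against 618 to 6044 in the other 6 libraries. Its log2 difference, LP minus PP, was -5.91 ± 0.67 (SE, n = 2 libraries a group; limma adjusted p = 0.0120) in the labelled knockout and -3.94 ± 0.80 (adjusted p = 0.0215) on average, on the log2(RPKM + 1) scale. Labelled knockout LP stood far below every other library, and both wild-type LP values lay below every PP value.

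Mrpl20, homologue of bacterial L20, an early binder in large subunit assembly (chromosome 4, bases 155802878 to 155808831, plus strand), measured 4.75 and 2.91 RPKM in labelled knockout LP, 92.2 and 102 RPKM in wild-type LP, 131 and 62.8 RPKM in labelled knockout PP, and 85.1 and 114 RPKM in wild-type PP. Here labelled knockout LP alone was low and the other 3 groups overlapped. The log2 difference between LP and PP in the labelled knockout was -4.28 ± 0.59 (limma adjusted p = 0.0258). Mrpl18, homologue of the 5S rRNA-binding protein L18 of bacteria (chromosome 17, bases 12911345 to 12917787, minus strand), measured 0.768 and 0.663 RPKM in labelled knockout LP, 68.1 and 12.3 RPKM in wild-type LP, 99.96 and 60.7 RPKM in labelled knockout PP, and 65.7 and 167 RPKM in wild-type PP. It fell by 5.52 ± 0.96 in LP of the labelled knockout (limma adjusted p = 0.0420) and by 3.66 ± 0.89 on average (adjusted p = 0.0481), on the log2 scale. Mrpl18 shares exonic bases with Tcp1 on the opposite strand, and 23 of the 78 members have such a neighbour, and the strand setting of the counting is not given, so reads of such neighbours cannot be told apart.

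Mrpl42, a protein found only in mitochondrial ribosomes (chromosome 10, bases 95480805 to 95501949, minus strand), measured 0.785 and 11.95 RPKM in labelled knockout LP, 9.92 and 10.3 RPKM in wild-type LP, 32.0 and 75.4 RPKM in labelled knockout PP, and 70.4 and 306.5 RPKM in wild-type PP. All 4 LP libraries lay below all 4 PP libraries. The average log2 difference was -3.56 ± 0.79 (limma adjusted p = 0.0314). These calls rest on few libraries. In the labelled knockout no member passed when the fit held only the 2 groups compared, where 0 of all genes did. Fewer of the labelled knockout calls held in each fit that left out 1 library, which leaves 1 in its group. Over the fits that left out 1 library each, the labelled knockout log2 differences were -6.05 to -5.78 for Mrpl34. They were -4.80 to -3.75 for Mrpl20 and -5.88 to -5.17 for Mrpl18. The average differences were -4.56 to -3.50 for Mrpl34, -4.17 to -3.02 for Mrpl42 and -4.51 to -3.15 for Mrpl18.

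**Figure D4:**
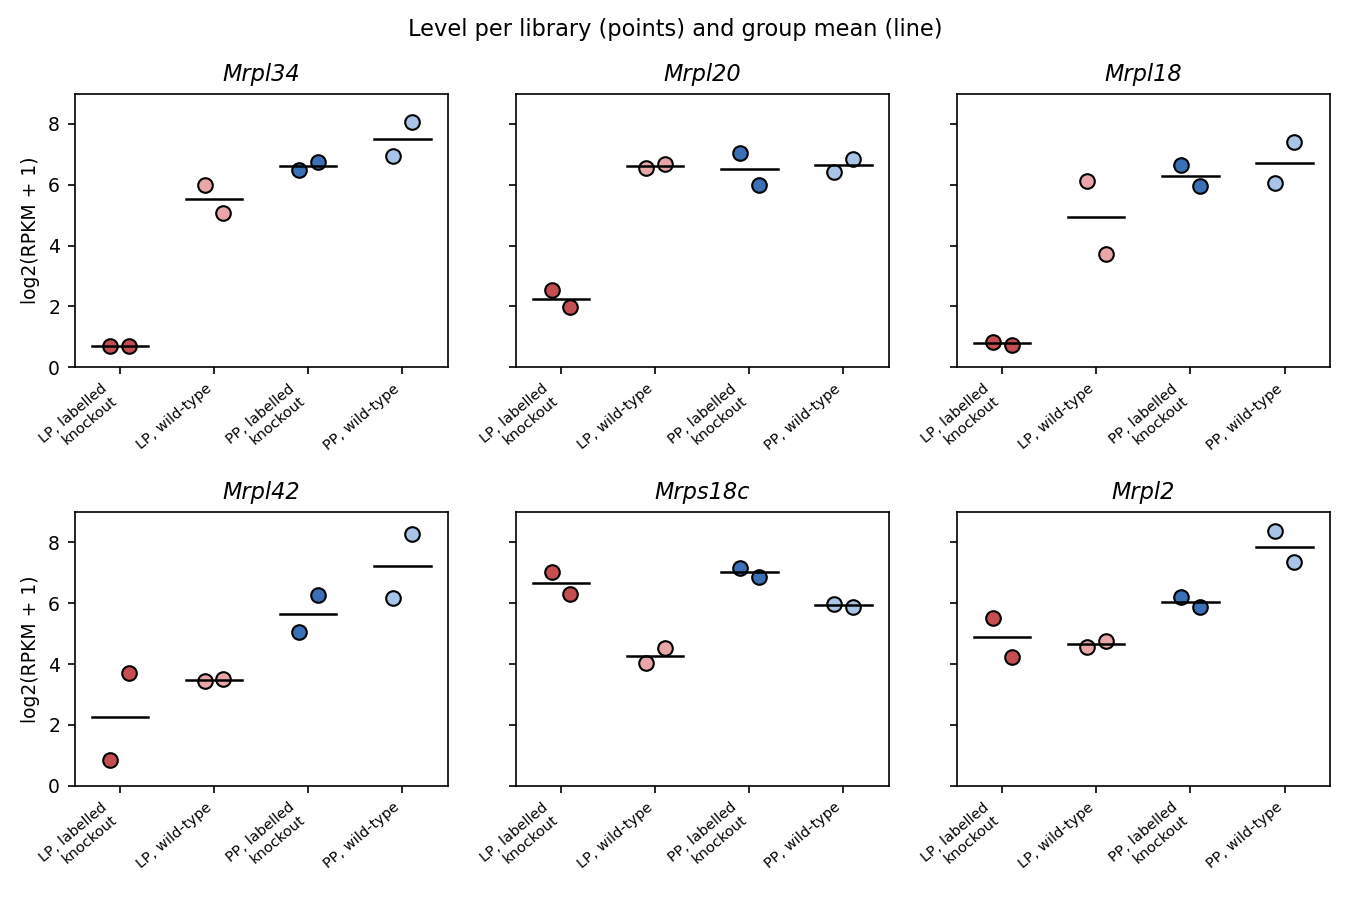
Level of 6 named genes in each library (points) with the group mean (line), as log2(RPKM + 1). Mrpl34, Mrpl20 and Mrpl18 are lowest in labelled knockout LP. Mrpl34, Mrpl42 and Mrpl2 are lower in all 4 LP than in all 4 PP libraries. Mrps18c is lower in wild-type than in labelled knockout libraries of the same tissue.

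The 250 bases before the annotated start of the 4 genes that passed are shown because these genes carry the calls between LP and PP (RefSeq, GRCm38.p6, gene strand, 5′ to 3′). Capitals mark matches on either strand to 5 motifs searched: CCGGAA, the core bound by ETS factors such as GABP; GCGCA, any base and GCGC, bound by NRF1; AAGATGGC, bound by YY1; GGGCGG, bound by Sp1; and CTTTGAT, the core bound by TCF-1 and its relatives.
Mrpl34 (chr8:71464676-71464925, plus): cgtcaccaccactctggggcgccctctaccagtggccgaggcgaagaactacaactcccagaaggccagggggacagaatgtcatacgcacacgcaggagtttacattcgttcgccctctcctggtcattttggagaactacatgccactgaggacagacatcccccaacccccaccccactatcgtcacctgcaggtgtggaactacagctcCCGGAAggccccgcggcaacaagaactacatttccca
Mrpl20 (chr4:155802628-155802877, plus): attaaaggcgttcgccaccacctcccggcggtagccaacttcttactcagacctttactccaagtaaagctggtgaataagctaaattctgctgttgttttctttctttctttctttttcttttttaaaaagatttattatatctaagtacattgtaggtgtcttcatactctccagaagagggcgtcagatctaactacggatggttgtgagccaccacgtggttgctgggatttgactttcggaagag
Mrpl18 (chr17:12916092-12916341, minus): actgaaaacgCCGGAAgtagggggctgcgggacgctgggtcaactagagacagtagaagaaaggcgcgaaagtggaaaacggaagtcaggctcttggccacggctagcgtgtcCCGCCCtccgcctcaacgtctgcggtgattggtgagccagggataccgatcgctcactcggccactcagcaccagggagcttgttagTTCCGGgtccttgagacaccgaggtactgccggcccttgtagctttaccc
Mrpl42 (chr10:95501950-95502199, minus): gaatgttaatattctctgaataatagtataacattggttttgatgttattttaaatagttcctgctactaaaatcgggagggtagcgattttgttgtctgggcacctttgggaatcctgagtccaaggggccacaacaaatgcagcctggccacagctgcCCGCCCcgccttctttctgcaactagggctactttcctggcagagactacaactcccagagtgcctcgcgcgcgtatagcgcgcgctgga
Mrpl34 held 1 ETS match, Mrpl18 held 2 ETS matches and 1 Sp1 match, Mrpl42 held 1 Sp1 match, and Mrpl20 held none of the 5. The Mrpl18 window precedes a start that lies inside the annotated span of the gene. No match says only that these letters are not in this window.

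Over the windows from 250 bases before to 50 after the start, 69 of the 78 members had 75 windows in the RefSeq table. The ETS core was in 43 of the 75 (57.3%), against 14.9% of all 32851 windows and 18.7% of windows of protein-coding genes. The NRF1 motif was in 13 (17.3%), against 4.60% of all and 6.38% of protein-coding windows, and the YY1 motif in 12 (16%), against 2.75 and 3.05%. The Sp1 box was in 39 (52.0%), against 35.7 and 46.2%. The TCF-1 core was in 0 of the 75 member windows, against 3.73 and 3.22%. The ETS core was in 27 of 48 large and 16 of 27 small subunit windows. Median GC content was 58.7% in member windows, 52.7% in all windows and 56.3% in windows of protein-coding genes. A match describes letters and is not a binding site, and none of the 5 motifs contains another.

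Looking at both genotypes, 24 of 76 members in the labelled knockout (background 22.9% of all genes) and 29 of 76 in the wild-type (background 16.4%) had both LP values below both PP values with a mean difference of at least 2-fold. The 14 members on both lists (18.4% of the 76, background 6.56%) were 58.3% of the labelled knockout list and 48.3% of the wild-type list. They were Mrpl2, Mrpl12, Mrpl34, Mrpl36, Mrpl41, Mrpl42, Mrpl52 and Mrpl58 of the large subunit and Mrps14, Mrps17, Mrps24, Mrps26, Mrps34 and Mrps36 of the small subunit symbols. In the other direction, higher in LP, no member was on both lists (background 6.55%). Mrpl2, whose bacterial homologue lies close to the peptidyl transferase centre, measured 45.2 and 17.8 RPKM in labelled knockout LP, 22.5 and 26.2 RPKM in wild-type LP, 72.5 and 58.1 RPKM in labelled knockout PP, and 329 and 162 RPKM in wild-type PP. It had the smallest p of the members in the wild-type, with a log2 difference of -3.20 ± 0.63 (limma adjusted p = 0.0563). Mrpl58 measured 53.2 and 46.4 RPKM in labelled knockout LP, 79.6 and 1.53 RPKM in wild-type LP, 213 and 219 RPKM in labelled knockout PP, and 221 and 325 RPKM in wild-type PP. Mrpl12, homologue of the bacterial stalk protein that recruits translation factors, was at 9.22 to 17.8 RPKM in the 4 LP libraries and 40.3 to 167 RPKM in the 4 PP libraries. Mrpl41, which occurs only in mitochondrial ribosomes, was at 13.7 and 5.07 RPKM in labelled knockout LP, 0.140 and 2.95 RPKM in wild-type LP, 18.96 and 57.4 RPKM in labelled knockout PP, and 34.99 and 34.99 RPKM in wild-type PP. Mrps36 was at 0 to 0.178 RPKM in LP and 0.313 to 8.02 RPKM in PP.

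Of the 76 members, 23 in the labelled knockout and 25 in the wild-type had a log2 difference above 0, that is, a higher fitted level in LP. Mrps18a measured 27.2 and 138 RPKM in labelled knockout LP, 79.3 and 64.3 RPKM in wild-type LP, 0.449 and 19.2 RPKM in labelled knockout PP, and 0.267 and 81.2 RPKM in wild-type PP, an average log2 difference of 3.18 ± 1.29 (limma adjusted p = 0.211). The PP replicates differed more from each other than the tissues did. Mrpl46, with 95.4 and 37.8 RPKM in labelled knockout LP and 31.3 and 0.387 RPKM in labelled knockout PP, and Mrpl4, with 161 and 104 RPKM in labelled knockout LP and 70.0 and 63.3 RPKM in labelled knockout PP, did not pass either (adjusted p = 0.428 and 0.389). In the wild-type Mrpl49 had 26.5 and 16.9 RPKM in LP and 0.104 and 0.118 RPKM in PP (log2 difference 4.32 ± 1.23, limma adjusted p = 0.139).

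Genes with and without a bacterial homologue both had medians below 0. In the labelled knockout the median log2 difference, LP minus PP, was -0.99 for 29 genes without and -0.60 for 47 with a homologue. The median of all genes was -0.29. There 82.8% of the genes without and 61.7% of those with a homologue were below 0, against 58.4% of all genes. In the wild-type the medians were -1.28 and -0.56, against 0.09 for all genes. The difference between these classes was not tested. By subunit symbol the medians were -0.75 for 48 large and -0.64 for 28 small subunit genes in the labelled knockout, and -0.59 for large and -0.99 for small subunit genes in the wild-type, so the order of the subunits was not the same in the genotypes.

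Set beside other gene groups, the mitochondrial ribosome had medians close to those of the nuclear-encoded respiratory chain, while those of the cytosolic ribosome lay near 0. For 77 respiratory chain and ATP synthase genes the median log2 difference was -0.66 in the labelled knockout, with 66 below 0, and -0.70 in the wild-type, with 63 below 0. Of these genes 1 passed as lower in each genotype and 7 on average. For 84 cytosolic ribosomal protein genes the medians were 0.00 and -0.08, and 0 passed in either genotype. The members summed to 14.4 to 19.4% of the cytosolic ribosomal protein level in LP and 28.4 to 32.1% in PP, with no overlap of the tissues. Against the respiratory chain they summed to 19.1 to 23.4% in LP and 22.2 to 25.5% in PP. The differences between these lists were described and not tested.

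**Figure D5:**
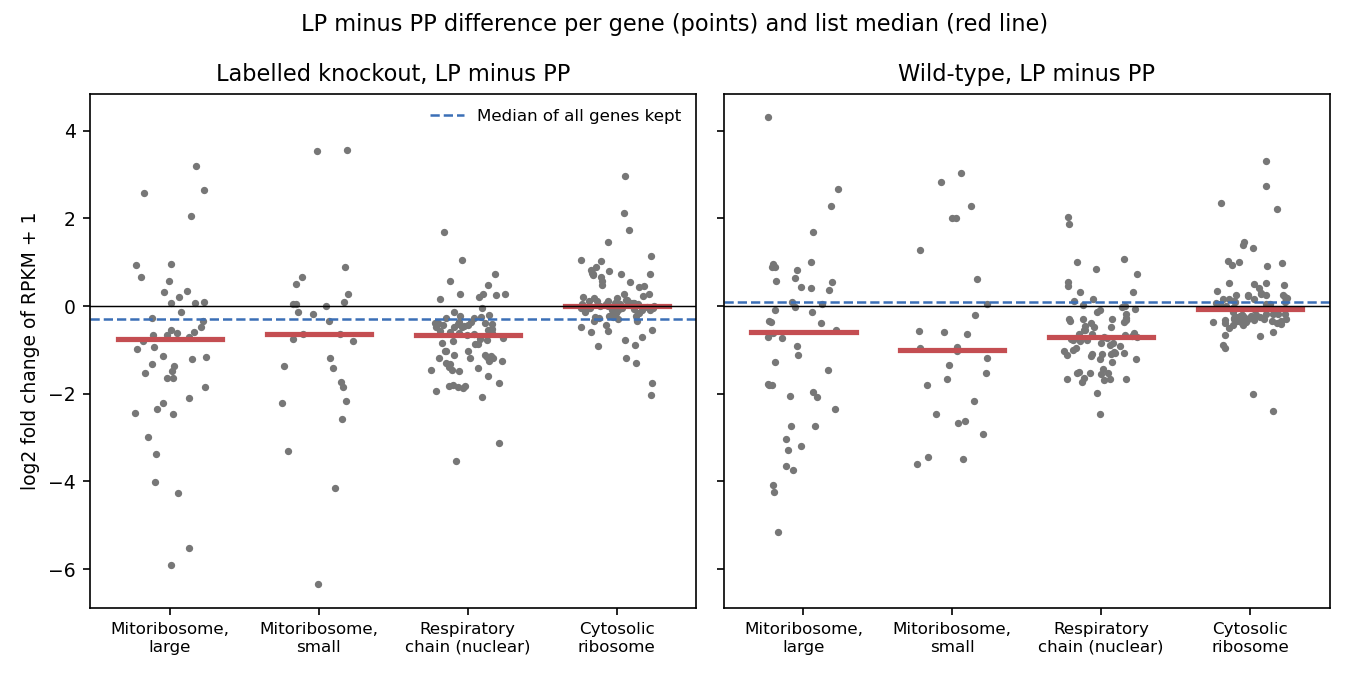
Log2 fold change of RPKM + 1, LP minus PP, per gene (points) in the labelled knockout (left) and the wild-type (right), with the list median (red line) and the median of all genes kept (dashed line). The mitochondrial ribosome and respiratory chain medians lie at -0.59 to -0.99 and the cytosolic ribosome medians at 0.00 and -0.08.

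Within PP, where the comparison asks what the Tcf7 genotype changes, 0 of 76 members passed between labelled knockout and wild-type, where 0.36% of all genes did, and 5 members (6.58%) had an unadjusted p under 0.05 against 11.4% of all genes (limma). Their median log2 difference was -0.36, while that of all genes was 0.16, and 51 of 76 were below 0 (67.1%, against 42.9% of all genes). The summed level in labelled knockout PP was 0.777 of that in wild-type PP. The cytosolic ribosomal proteins had a similar median of -0.41 and the respiratory chain genes -0.16. The smallest p belonged to Mrps18b, a small subunit homologue of bacterial S18, with 0.172 and 0.189 RPKM in labelled knockout PP and 22.1 and 68.0 RPKM in wild-type PP (log2 difference -5.08 ± 1.40, limma adjusted p = 0.207). Mrpl49, found only in mitochondrial ribosomes, went the other way, with 11.5 and 36.3 RPKM in labelled knockout PP and 0.104 and 0.118 RPKM in wild-type PP (4.28 ± 1.23, limma adjusted p = 0.225). It overlaps a gene on the opposite strand. Mrpl16, Mrpl4 and Mrpl2 had log2 differences of -1.71 ± 0.52, -1.27 ± 0.44 and -1.81 ± 0.63 (limma adjusted p = 0.247 to 0.308), with Mrpl16 at 38.8 and 48.2 RPKM in labelled knockout PP and 176 and 117 RPKM in wild-type PP. Among these, no difference passed the threshold over all genes.

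The ribosomal RNAs and messengers that these proteins work with were higher in labelled knockout PP, with calls that depended on the settings of the fit. The 12S rRNA, mt-Rnr1, measured 1920.4 and 1872 RPKM in labelled knockout PP, against 359.8 and 393 RPKM in wild-type PP, a log2 difference of 2.33 ± 0.29 (limma adjusted p = 0.0348). The 16S rRNA, mt-Rnr2, rose by 2.43 ± 0.28 (adjusted p = 0.0264). All 13 mitochondrially encoded protein genes had log2 differences above 0, the lowest 1.66, and 9 of them passed. An example is mt-Cytb of complex III, at 1.996 ± 0.11 (limma adjusted p = 0.00142). These calls were repeated with other settings, chosen after seeing the data. Over the fits that left out 1 library each, the log2 differences were 2.25 to 2.62 for the rRNAs and 1.43 to 2.61 for the protein genes. Under median-of-ratios scaling 0 rRNAs and 5 protein genes passed, of 23 genes passing in all, against 38 in the main fit. With no filter on low values 0 and 4 passed, of 76 in all, and with a replicate block 0 and 7, of 16. With no variance trend 0 and 0 passed, of 138 in all. With the PP libraries alone 0 and 0 passed, where 0 of all genes did. The mitochondrially encoded protein transcripts summed to 14.57 and 14 times the mitochondrial ribosomal protein level in labelled knockout PP, against 2.69 and 2.87 times in wild-type PP. In LP this ratio was 7.16 and 6.91 in the labelled knockout and 4.44 and 5.40 in the wild-type. In the libraries where the RNAs of the mitochondrial ribosome were highest, 0 of 76 members passed as higher than in wild-type PP. Over all genes 28 of 10541 did. The median SE was 1.27 for the members and 0.29 for the rRNAs, so equal changes were not equally detectable. Values are scaled to all reads, so a larger share of one class leaves less for the rest. With mitochondrially encoded and immunoglobulin genes left out of the total, the member sum ratio in PP was 0.850, and with median-of-ratios scaling it was 0.520.

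Within LP 0 of 76 members passed between labelled knockout and wild-type, where 0.0285% of all genes did, and 5 (6.58%) had an unadjusted p under 0.05 against 5.27% of all genes (limma). The median log2 difference was -0.25 for members and -0.06 for all genes. The summed level in labelled knockout LP was 0.924 of that in wild-type LP, within the spread of the replicates, and 1.09 of it when libraries were scaled by median of ratios. The smallest p belonged to Mrpl20, Mrpl34, Mrps18c and Mrpl18. Their log2 differences were -4.37 ± 0.59 (limma adjusted p = 0.255) for Mrpl20, -4.83 ± 0.67 (0.259) for Mrpl34, 2.39 ± 0.50 (0.329) for Mrps18c and -4.14 ± 0.96 (0.354) for Mrpl18. With no filter on low values Mrpl20 passed (limma adjusted p = 0.0461). Mrpl38, found only in mitochondrial ribosomes, had 2.78 and 14.5 RPKM in labelled knockout LP and 56.3 and 48.3 RPKM in wild-type LP (-2.80 ± 0.88, limma adjusted p = 0.643). Mrps30 had 57.6 and 38.7 RPKM in labelled knockout LP and 0.262 and 22.1 RPKM in wild-type LP (3.16 ± 1.37, limma adjusted p = 0.963).

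Mrps18c was the only member with both labelled knockout values above both wild-type values, and a mean difference of at least 2-fold, in both tissues. That is 1.32% of the 76 members, against a background of 2.18% of all genes. It encodes the homologue of bacterial S18 that takes the place of S18 in the small subunit. It measured 129 and 78.1 RPKM in labelled knockout LP, 15.3 and 22.0 RPKM in wild-type LP, 143 and 115 RPKM in labelled knockout PP, and 61.9 and 58.1 RPKM in wild-type PP. All 4 labelled knockout libraries lay above all 4 wild-type libraries. The average log2 difference was 1.74 ± 0.45 and did not pass (limma adjusted p = 0.630). Its paralogues did not share the pattern: Mrps18a had 27.2 and 138 RPKM in labelled knockout LP and 79.3 and 64.3 RPKM in wild-type LP, and Mrps18b had 3.56 and 41.2 RPKM in labelled knockout LP and 26.1 and 5.98 RPKM in wild-type LP, so their LP groups overlapped. Averaged over the tissues 0 of 76 members passed between the genotypes, where 0.00949% of all genes did, and 7 (9.21%) had an unadjusted p under 0.05 against 6.81% of all genes (limma).

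Whether the genotype difference in LP was unlike that in PP was tested as an interaction. Here 0 of 76 members passed, where 0.0285% of all genes did, and 7 (9.21%) had an unadjusted p under 0.05 against 8.75% of all genes (limma). Mrpl20 had the smallest p, with an interaction of -4.25 ± 0.84 on the log2 scale (limma adjusted p = 0.280), followed by Mrpl34 at -3.94 ± 0.95 (0.309) and Mrpl49 at -5.95 ± 1.73 (0.351). The member median was 0.37, against -0.39 for all genes, and turned to -0.16 without replicate 1 of labelled knockout PP.

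The other parts of the mitochondrial translation system gave few calls. The 6 mitochondrial ribosome proteins with other symbols (Dap3, Ptcd3, Aurkaip1, Chchd1, Gadd45gip1 and Oxa1l, the last an insertase that binds the ribosome) had median log2 differences between LP and PP of -0.82 in the labelled knockout and -0.89 in the wild-type, with 6 and 5 of 6 below 0 and none past the threshold. Gadd45gip1 measured 35.6 and 18.8 RPKM in labelled knockout LP, 25.8 and 12.8 RPKM in wild-type LP, 59.7 and 61.9 RPKM in labelled knockout PP, and 56.0 and 28.7 RPKM in wild-type PP. Of 15 translation factors 14 were tested, with medians of -1.07 and -1.12, 13 and 10 below 0 and 0 passing. Tufm, the elongation factor that delivers aminoacyl-tRNA, measured 4.95 and 0.215 RPKM in labelled knockout LP, 6.99 and 6.69 RPKM in wild-type LP, 15.3 and 10.3 RPKM in labelled knockout PP, and 40.02 and 37.4 RPKM in wild-type PP. Mtif3, an initiation factor, was below 1 RPKM in all 4 LP libraries and at 2.29 to 20.4 RPKM in the PP libraries (average log2 difference -3.07 ± 0.90, limma adjusted p = 0.0906). The 25 assembly factors had medians of -0.22 in the labelled knockout and 0.16 in the wild-type, and 0 passed.

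Among regulators of nuclear genes for mitochondrial proteins, 7 of 9 were tested and 0 passed in any comparison. Gabpb1, the partner subunit of the ETS factor GABP, measured 70.8 and 85.3 RPKM in labelled knockout LP, 151 and 132 RPKM in wild-type LP, 46.7 and 43.8 RPKM in labelled knockout PP, and 58.6 and 45.8 RPKM in wild-type PP. Its LP values lay above its PP values (average log2 difference 1.10 ± 0.37, limma adjusted p = 0.138). Of the 7 regulators tested, 2 had an average log2 difference between LP and PP above 0 and 5 below 0. Among the 5 was Nrf1, a transcription factor for nuclear genes of mitochondrial proteins, with 0.182 and 12.6 RPKM in labelled knockout LP, 19.7 and 12.4 RPKM in wild-type LP, 3.27 and 26.8 RPKM in labelled knockout PP, and 46.7 and 41.6 RPKM in wild-type PP (-1.44 ± 0.97, limma adjusted p = 0.447). Ppargc1a and Ppargc1b, coactivators of mitochondrial biogenesis, were below 0.01 RPKM in all libraries except one wild-type LP library with 5.96 RPKM of Ppargc1b. Of 10 genes for mitochondrial transcription and genome maintenance, 9 were tested and 0 passed.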

How the data were processed

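RNA came from a miRNeasy Micro kit and entered Smart-seq2, per the labels' protocols. The authors deposited 1 table of log2(RPKM + 1) values, with 0.0001 written in place of 0. That it is log2 was checked on the values. Reads were assigned to genes with featureCounts of Subread on mm10, per the submitters' processing notes, and the sources used here do not name the aligner, its version or the strand option. The values were turned back to RPKM. Genes at 1 RPKM or more in at least 2 libraries (10541) were fitted with limma 3.58.1 in R 4.3.3 on log2(RPKM + 1), with 4 group means, or tissue and genotype as additive terms for averages, eBayes with trend, two-sided tests and Benjamini-Hochberg adjustment over all 10541 genes. The fit was tested on simulated data. No count test was made. A fold change on this scale understates the change of low genes.

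Depth was estimated from the steps of low values; quartiles over the genes used span 24.1 to 43.4 M reads. Symbols in the table differ in case, so the rule was applied regardless of case; all 78 Entrez identifiers carry the same symbol in RefSeq. Genes were named by rule: every member that passed, up to 5 per direction by p for each simple comparison and 3 for the others, the 6 highest, the 5 steadiest and most variable, and 6 by role. The members and lists were chosen with earlier results of these data known. Mrpl24, Mrpl12 and others outside the rule were chosen after their values were seen. Alternatives were another pseudocount, other filters and scalings, other fits and leaving out each library. Reads of pseudogene copies may be split by the authors' counting. Some cell type markers and the Cre driver are not reported here.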

Additional observations from a re-analysis of the deposited data

How the results depend on the processing

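All 917 alternative values of the 55 named gene comparisons kept their direction, but this was largely fixed in advance. Another filter, no variance trend or a replicate block leaves the estimated difference as it is. For simple comparisons, genes were named only where the libraries of the 2 groups did not overlap. There only another scaling could have turned the direction. Of the 6 that passed, Mrpl34 in labelled knockout LP against PP passed in 10 of 17 alternatives (adjusted p 0.0113 to 0.205), Mrpl20 in 9 (0.0251 to 0.226) and Mrpl18 in 3 (0.0409 to 0.226). On average over genotypes Mrpl34 passed in 9 of 16 (0.00985 to 0.101), Mrpl42 in 7 and Mrpl18 in 5.
The number of members lower in LP in the labelled knockout was 3. Under a replicate block it was 1, while genes passing in all fell from 211 to 74. With only the 2 groups compared it was 0, where 0 of all genes passed. Fewer of these calls held in each fit that left out 1 library, which leaves 1 in its group. Correlations of replicate differences between groups were -0.0214 to 0.0103 over 10541 genes and -0.0823 to 0.125 over the members. Whether libraries with the same replicate number were paired is not given, and these values cannot settle it. On average, 3 became 1 with a pseudocount of 0.1, 6 with 5, 0 with no filter, 0 without the trend, and 0 to 4 without 1 library. In the wild-type 0 became 1 (Mrpl2) with a pseudocount of 5 or median-of-ratios scaling, and 0 to 2 without 1 library. In LP, 0 became 1 with no filter.
Under median-of-ratios scaling the all-gene median was -0.07 instead of 0.16 (genotype in PP), 0.01 instead of -0.29 (tissue, labelled knockout), -0.03 instead of 0.09 (tissue, wild-type) and 0.17 instead of -0.39 (interaction). The member medians became -0.83, -0.29, -1.02 and 1.08. Relative to all genes they were -0.76, -0.30, -0.9956 and 0.90, against -0.52, -0.40, -0.81 and 0.76 as deposited. With a pseudocount of 5 the average tissue median was -0.66. Leaving out 1 library gave medians of -0.36 to -0.12 (genotype in PP), -1.11 to -0.61 (tissue, wild-type), -0.96 to -0.58 (tissue, labelled knockout), -0.98 to -0.67 (average tissue) and -0.16 to 0.45 (interaction, which turned without labelled knockout PP replicate 1).
Sum ratios, an addition made after seeing the data, became 0.520 (genotype in PP), 1.09 (genotype in LP, reversed), 0.387 (tissue, wild-type) and 0.809 (tissue, labelled knockout) under median-of-ratios scaling. With the total taken without immunoglobulin and mitochondrially encoded genes they were 0.850 in PP and 0.553 for tissue in the wild-type. Leaving out 1 library gave 0.856 to 1.004 (genotype in LP, reversed without wild-type LP replicate 1) and 0.451 to 0.528 (tissue, wild-type). The cause of these shifts was not tested. Depth limits the lowest values: the Mrpl34 levels in labelled knockout LP rest on about 12 to 14 reads.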
